A study of Mus musculus with 9 samples.

Results

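The messenger RNA of 45 genes that mark T cells and natural killer (NK) cells was examined in subcutaneous KLN205 tumors carrying a control shRNA or one of 2 *Tmprss11b* shRNAs. The genes were chosen by symbol: the CD3 chains and the CD4 and CD8 co-receptors, costimulatory and inhibitory receptors, signalling proteins, transcription factors, homing receptors, interferon gamma and NK cell receptors, with granzymes left out. All 45 symbols were found among the 19481 genes of the table, and all 45 were among the 14725 genes that passed the filter on low counts.

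KLN205 is a mouse line of lung squamous cell carcinoma (LUSC) that grows in DBA/2 mice, the strain it comes from, so the host keeps a working immune system. Cells were injected under the skin of wild-type female DBA/2 mice that were 6 to 8 weeks old, and doxycycline was given in the drinking water from a mean tumor volume of 100 mm3 until the experiment ended, with the last tumor measurement on day 50 after injection. Every tumor, controls included, therefore carried a doxycycline-inducible SMART shRNA construct and came from a mouse on doxycycline. The groups were shControl (a scrambled shRNA), sh2 and sh3 (different shRNAs against *Tmprss11b*), with 3 tumors each, labelled as biological replicates. The shRNA acts in the injected carcinoma cells and not in the host's T cells or NK cells. Each library was made from a 30 to 50 mg piece of tumor, and no cells were sorted.

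T cells recognise antigen through a receptor whose signal is carried by the CD3 chains, and the co-receptors CD4 and CD8 divide them into helper and cytotoxic lineages. Activated T cells put inhibitory receptors such as PD-1 and CTLA-4 on their surface, regulatory T cells depend on the factor FOXP3, and NK cells kill without an antigen receptor. In a bulk tumor sample fewer cells of a type and less RNA per cell cannot be told apart. The study asked how loss of *Tmprss11b* changes the immune cells of these tumors.

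Between 20653219 and 24047784 reads were counted on genes in each tumor. Levels are given as CPM, the count scaled by the tumor's total and by edgeR's TMM factor, and a level of 3 counts corresponded to 0.123 to 0.152 CPM, a floor that covers counting error only. *Tmprss11b*, listed under its older symbol *Tmprss11bnl*, had 18, 51 and 42 counts in the shControl tumors, 7, 2 and 5 in the sh2 tumors and 10, 4 and 5 in the sh3 tumors. The carcinoma label was checked against epithelial markers. *Epcam*, an epithelial adhesion molecule, lay between 646 and 1151 CPM, whereas *Krt5*, a keratin of basal squamous cells, was between 0.0856 and 87.4 CPM and at or below 5.02 CPM in every tumor except shControl replicate 1, and the squamous factor *Trp63* was between 0.370 and 6.94 CPM. Of the other keratins listed, *Krt6a* at 46.4 to 292 CPM and *Krt14* at 12.3 to 389.7 CPM were higher. *Krt16* was at 1.34 to 46.4 CPM and *Krt15* at 0.185 to 23.0 CPM. The remaining markers of this list were *Dsg3*, at 0.231 to 5.00 CPM, and *Cdh1*, at 235 to 682 CPM.

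The level of T cell and NK cell RNA differed more between the tumors of sh2, and between those of sh3, than between the group means. Summed over the 45 genes, it was 376, 453 and 468 CPM in the shControl tumors, 475, 200.4 and 305 in the sh2 tumors and 374, 632 and 719 in the sh3 tumors. The shControl tumors lay close together, sh2 replicate 2 was the lowest of all tumors, and sh3 replicates 2 and 3 were above every other tumor. Of the 45 genes, 36 had their lowest level in sh2 replicate 2, while 23 had their highest level in sh3 replicate 3 and 17 in sh3 replicate 2. The genes made up between 0.0192% and 0.0699% of all counts. Within this range the single genes varied unequally: the highest tumor exceeded the lowest by 1.57-fold for *Tcf7*, the steadiest, and by 23.3-fold for *Cd8b1*, the most variable.

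**Figure D1:**
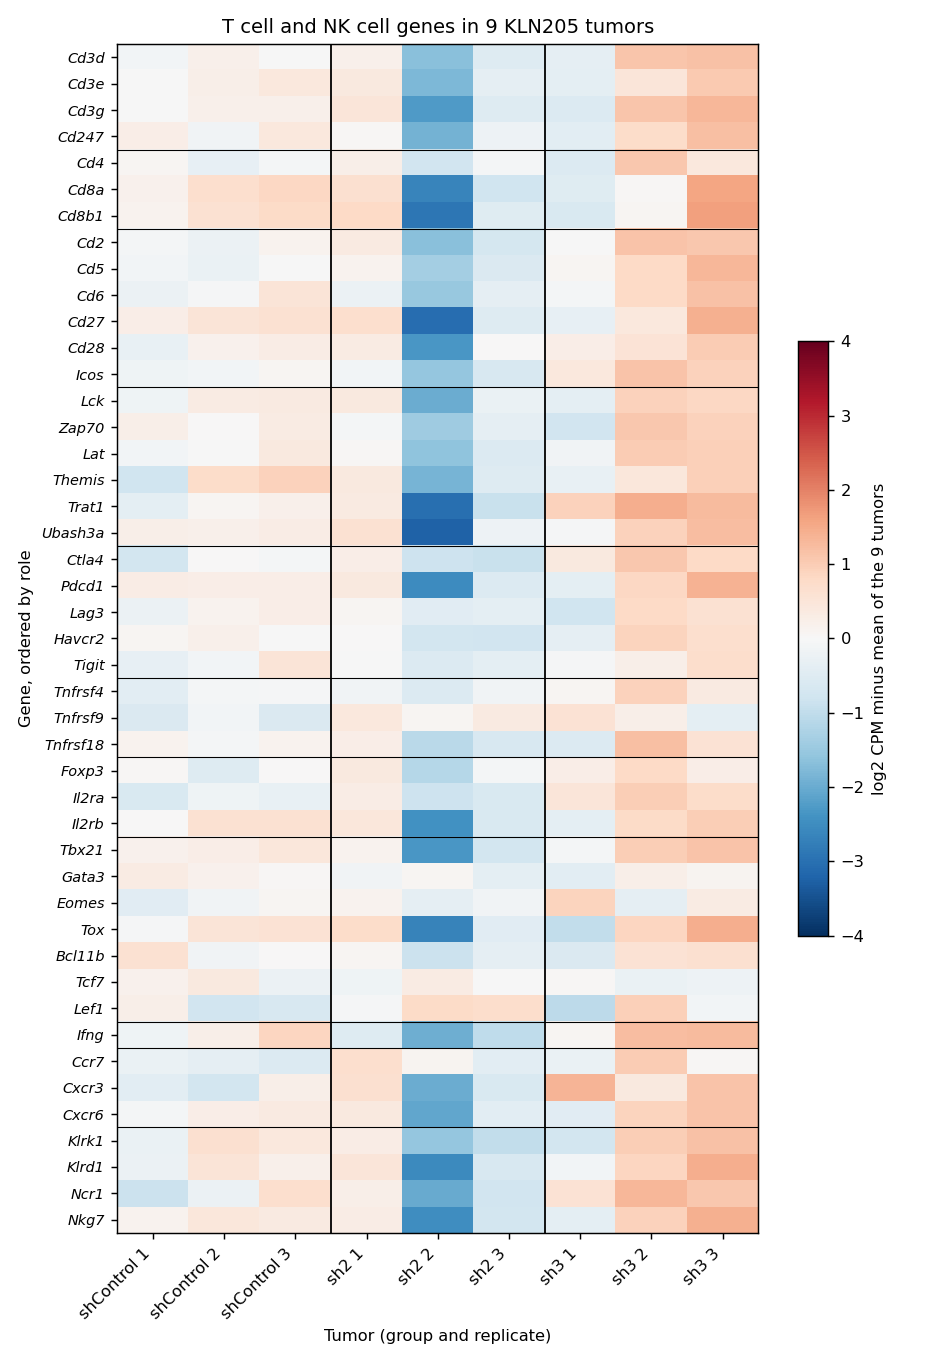
Level of each of the 45 genes (vertical axis, grouped by role) in each of the 9 tumors (horizontal axis), as log2 CPM minus the mean of that gene over the 9 tumors (colour). The column of sh2 replicate 2 holds the lowest value of 36 genes, and the columns of sh3 replicates 2 and 3 hold the highest value of 17 and 23 genes.

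With these spreads no gene of the 45 passed an FDR of 0.05 in edgeR's quasi-likelihood test, in any comparison. No gene of the whole table passed either (0% of 14725 in each comparison). DESeq2's Wald test, run as an alternative, called 2 of the 45 in sh3 against sh2 and none in the other comparisons. They were *Icos* (adjusted p = 0.0480) and *Ifng* (adjusted p = 0.04995), beside 48 of all 14725 genes called in that comparison. None of the 45 was called by edgeR's likelihood ratio test. Across the 45 genes the log2 fold change had a median of −0.52 for sh2 against shControl, where 40 genes were lower and 5 higher, and 0.52 for sh3 against shControl, where 42 were higher and 3 lower. Over all 14725 genes the medians were 0.01 and 0.03, with 7100 genes lower with sh2 and 8083 higher with sh3. The 45 genes varied together across tumors, so counts of sign, here and by role below, are not counts of separate observations. The shRNAs gave medians of opposite sign, and for the mean of sh2 and sh3 against shControl the median was −0.03, with 21 genes higher and 24 lower. Both comparisons share the same control tumors. In the direct comparison of sh3 against sh2 the median was 1.04, with 42 genes higher and 3 lower. Over all 14725 genes it was 0.03, with 8077 higher and 6648 lower.

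The medians depended on single tumors. Without sh2 replicate 2, the median for sh2 against shControl was −0.17, and without sh2 replicate 1 it was −1.02. For sh3 against shControl it was 0.28 without sh3 replicate 3 and 0.83 without sh3 replicate 1. For sh3 against sh2 it was 0.63 without sh2 replicate 2, 1.62 without sh2 replicate 1, 0.74 without sh3 replicate 3 and 1.32 without sh3 replicate 1. In the mean of both shRNAs the median lay on either side of 0, between −0.23 without sh2 replicate 1 and 0.15 without sh2 replicate 2, and it was also above 0 without shControl replicate 3 (0.06) or sh3 replicate 1 (0.12).

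At an unadjusted p under 0.05, a looser reading of the same edgeR test, 1 of the 45 genes was higher with sh2 (1.64% of all genes were) and 1 was lower (1.87% of all genes). Without sh2 replicate 1 the count of lower genes was 11. With sh3, 3 were higher (background 3.50%) and none was lower (background 3.13%). The count of higher genes was 11 without sh3 replicate 1, 6 without sh2 replicate 1 or sh2 replicate 2, and 0 without shControl replicate 1. For the mean of both shRNAs 1 was higher (background 1.35%) and none lower (background 2.74%). In sh3 against sh2, 15 of the 45 were higher, which is 33.3% of them beside 3.52% of all genes, and none was lower beside 3.66% of all genes. This count was 5 without sh2 replicate 2, 4 without sh2 replicate 3, 7 without sh3 replicate 2 and 6 without sh3 replicate 3, and it was 32 without sh2 replicate 1 and 27 without sh3 replicate 1. No gene passed the FDR in any of these fits. The shares of all genes given here come from the fit of all tumors. Matching shares for the fits that leave out a tumor are not given. Whether the changes in count were particular to the 45 genes was therefore not tested.

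Groups that do not overlap were also counted, meaning that every tumor of one group lay above every tumor of the other. For sh2 against shControl only *Tnfrsf9* was higher in this way (5.56% of all genes) and *Zap70*, *Tbx21* and *Ifng* were lower (5.83% of all genes). For sh3 against shControl 8 genes were higher (6.78% of all genes) and none was lower (5.44% of all genes). They were *Cd5*, *Icos*, *Trat1*, *Ctla4*, *Tnfrsf4*, *Foxp3*, *Il2ra* and *Cxcr3*. For sh3 against sh2, *Cd6*, *Icos*, *Trat1*, *Ctla4*, *Tnfrsf4*, *Il2ra*, *Ifng* and *Ncr1* were higher, again 8 genes (5.51% of all genes), and none was lower (4.62% of all genes). An exact two-sided permutation test of 3 tumors against 3 cannot go below p = 0.1, the value each of these genes had.

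**Figure D2:**
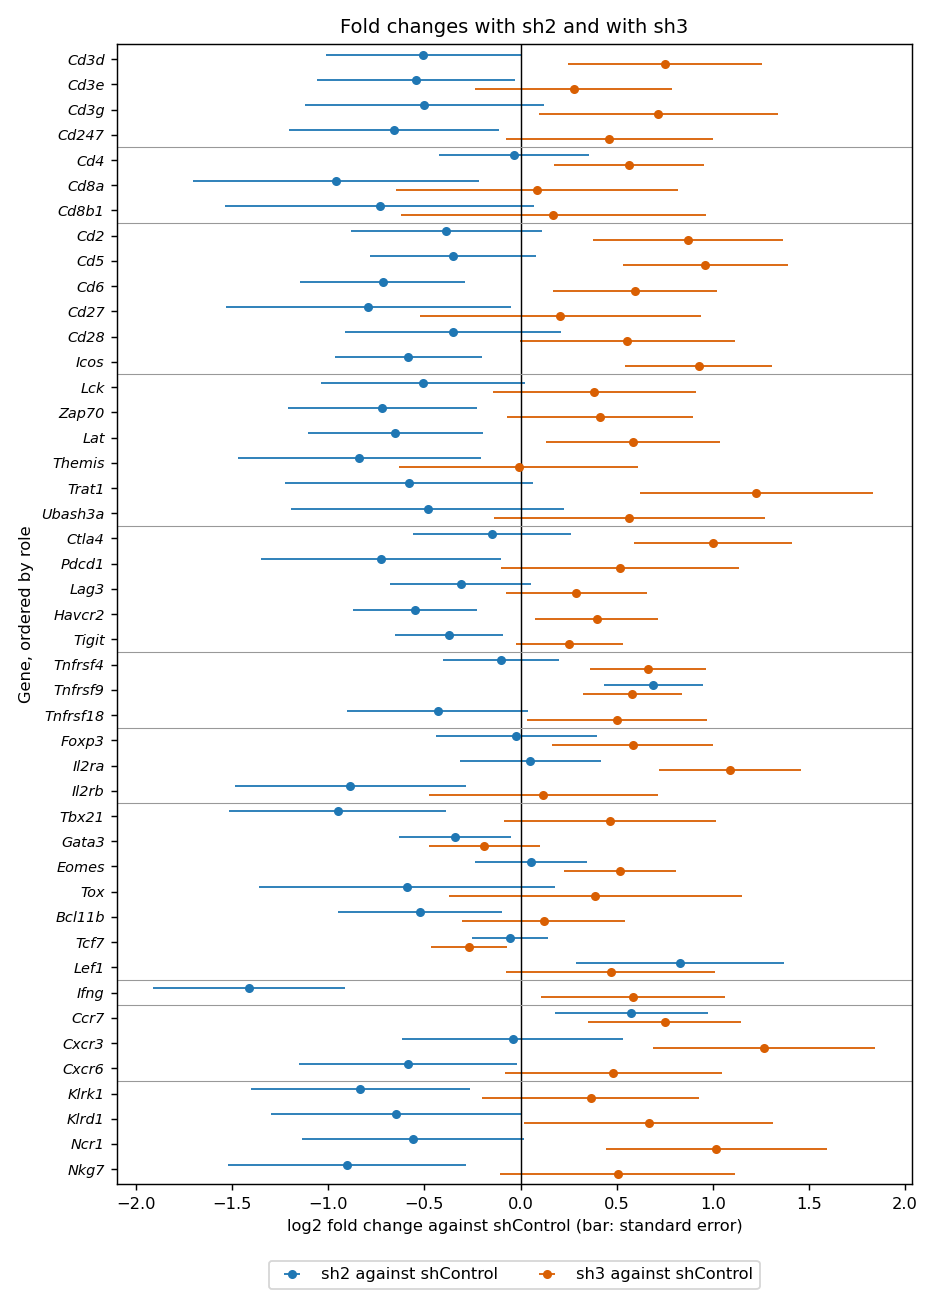
Log2 fold change against shControl (horizontal axis) of each gene (vertical axis) with sh2 (blue) and with sh3 (orange), as points with bars of 1 standard error from the edgeR fit of 3 tumors per group. The sh2 points lie left of 0 for 40 of the 45 genes and the sh3 points right of 0 for 42.

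The CD3 chains, which carry the signal of the T cell receptor, followed the pattern of the summed levels closely. *Cd3e* was at 8.82, 10.4 and 12.0 CPM in the shControl tumors, 11.8, 2.56 and 6.97 in the sh2 tumors and 6.84, 12.7 and 18.4 in the sh3 tumors. Below every control lay sh2 replicates 2 and 3 and sh3 replicate 1, and the groups overlapped. The log2 fold change of *Cd3e* was −0.55 (SE 0.52, FDR = 0.999) with sh2 and 0.28 (SE 0.51, FDR = 0.935) with sh3. Without sh3 replicate 3 the latter turned to −0.12. *Cd3d* was at 5.20, 6.46 and 5.57 CPM in the shControl tumors, 6.45, 1.74 and 3.92 in the sh2 tumors and 4.35, 12.0 and 12.7 in the sh3 tumors. *Cd3g* was at 15.3, 17.8 and 18.0 CPM in the shControl tumors, 21.8, 3.29 and 11.1 in the sh2 tumors and 10.7, 33.9 and 39.5 in the sh3 tumors. In both genes sh3 replicates 2 and 3 lay above all other tumors and sh2 replicate 2 below them. The log2 fold changes with sh3 were 0.75 (SE 0.50, FDR = 0.813) for *Cd3d* and 0.72 (SE 0.62, FDR = 0.843) for *Cd3g*, and those with sh2 were −0.51 and −0.50. *Cd247* was at 3.28, 2.44 and 3.60 CPM in the shControl tumors, 2.82, 0.725 and 2.34 in the sh2 tumors and 2.03, 4.52 and 6.29 in the sh3 tumors. *Cd247* encodes the zeta chain, whose gene lies on another chromosome than the other chains, and it too was lowest in sh2 replicate 2 and highest in sh3 replicate 3, with log2 fold changes of −0.66 with sh2 and 0.46 with sh3 (FDR = 0.999 and 0.890). Exons of *Cd247* overlap *Pou2f1* on the opposite strand, and the strand setting of the counting was not given in the sources used here.

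*Cd3g*, *Cd3d* and *Cd3e* sit side by side on chromosome 9 (GRCm38.p6), with *Cd3g* and *Cd3d* only 1.337 kb apart and pointing away from each other. Over the 9 tumors their log2 levels were correlated at r = 0.99, and each was correlated with *Cd3e* at 0.94 (*Cd3d*) and 0.98 (*Cd3g*). Genes on other chromosomes varied with *Cd3e* too, such as *Tox* and *Nkg7* (both r = 0.99). Whether position played a part was not tested. The 250 bases in front of a listed start of each gene are shown as a description of this cluster. They were taken from RefSeq (GRCm38.p6), at chr9:44980432-44980681 on the minus strand for *Cd3g*, chr9:44981536-44981785 on the plus strand for *Cd3d* and chr9:45009612-45009861 on the minus strand for *Cd3e*. Capitals mark every match, on either strand, to one of 4 short motifs. They are AGGAAG for the factors of the ETS family, AGATAA for those of the GATA family, CTTTGA for those of the TCF and LEF family, and TGTGGT for the core that RUNX factors recognise.
Cd3g: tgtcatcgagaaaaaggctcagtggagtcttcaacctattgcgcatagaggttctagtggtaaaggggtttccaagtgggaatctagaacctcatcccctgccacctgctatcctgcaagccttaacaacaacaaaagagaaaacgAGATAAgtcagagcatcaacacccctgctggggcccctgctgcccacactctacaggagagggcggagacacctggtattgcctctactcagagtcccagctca
Cd3d: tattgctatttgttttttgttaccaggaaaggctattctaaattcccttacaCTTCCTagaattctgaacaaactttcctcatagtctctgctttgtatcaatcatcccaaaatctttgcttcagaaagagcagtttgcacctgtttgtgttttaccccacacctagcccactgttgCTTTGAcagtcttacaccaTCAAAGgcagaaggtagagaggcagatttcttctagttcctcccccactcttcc
Cd3e: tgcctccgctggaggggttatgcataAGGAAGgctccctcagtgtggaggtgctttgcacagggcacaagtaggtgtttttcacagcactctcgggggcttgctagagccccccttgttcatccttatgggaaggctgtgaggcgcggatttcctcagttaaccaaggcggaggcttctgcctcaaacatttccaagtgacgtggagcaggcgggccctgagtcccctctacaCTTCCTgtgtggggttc
The *Cd3d* stretch held 2 TCF/LEF matches and 1 ETS match, the *Cd3e* stretch 2 ETS matches and the *Cd3g* stretch 1 GATA match. Over the 45 promoter stretches that RefSeq lists for 34 of the 45 genes, 40.0% held the ETS letters and 24.4% the RUNX letters, beside 29.5% and 14.0% of all 32851 mouse promoter stretches of this length. The TCF/LEF letters were in 15.6% beside 13.8%, and the GATA letters in 6.67% beside 9.99%. Such matches of 6 letters are a description of sequence, not sites bound by a factor.

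The co-receptors differed from each other in their order of tumors. *Cd4* was at 19.6, 14.8 and 17.8 CPM in the shControl tumors, 22.0, 11.0 and 17.9 in the sh2 tumors and 12.7, 39.5 and 25.1 in the sh3 tumors. In *Cd4*, the co-receptor of helper and regulatory T cells, only sh2 replicate 2 and sh3 replicate 1 were below every control, and sh3 replicate 2 was the highest tumor. *Cd8a* was at 16.9, 23.6 and 26.3 CPM in the shControl tumors, 23.3, 2.37 and 8.55 in the sh2 tumors and 10.7, 15.5 and 44.7 in the sh3 tumors. *Cd8b1* was at 5.54, 7.70 and 8.56 CPM in the shControl tumors, 8.80, 0.676 and 3.59 in the sh2 tumors and 3.33, 5.39 and 15.8 in the sh3 tumors. *Cd8a* and *Cd8b1* encode the chains of the CD8 co-receptor of cytotoxic T cells, and here 2 sh2 tumors and 2 sh3 tumors lay below every control in both genes, while sh3 replicate 3 was far above all others. The log2 fold changes with sh2 were −0.04 (SE 0.39, FDR = 0.999) for *Cd4*, −0.96 (SE 0.74, FDR = 0.999) for *Cd8a* and −0.73 for *Cd8b1*. With sh3 they were 0.56 (SE 0.39, FDR = 0.817), 0.09 (SE 0.73, FDR = 0.989) and 0.17. Without sh3 replicate 3 the sh3 values turned to −0.79 for *Cd8a* and −0.76 for *Cd8b1*, and the *Cd4* value with sh2 turned to 0.21 without sh2 replicate 2.

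The ratio of *Cd4* to *Cd8a* within a tumor was compared on TPM, which accounts for transcript length. It was 1.17, 0.635 and 0.683 in the shControl tumors, 0.956, 4.69 and 2.11 in the sh2 tumors and 1.20, 2.57 and 0.568 in the sh3 tumors. Of the 6 tumors with a *Tmprss11b* shRNA 4 were above every control, and the other two, sh2 replicate 1 and sh3 replicate 3, were not. The means were 0.83 ± 0.30 for shControl, 2.58 ± 1.91 for sh2 and 1.45 ± 1.02 for sh3 (SD, n = 3 tumors). Exact two-sided permutation tests gave p = 0.2 for sh2 against shControl and p = 0.6 for sh3 against shControl. In all 11 such ratios were compared, and their p-values are unadjusted. The ratio of *Cd8b1* to *Cd8a* was steadier, between 0.632 and 0.927 in all tumors.

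**Figure D3:**
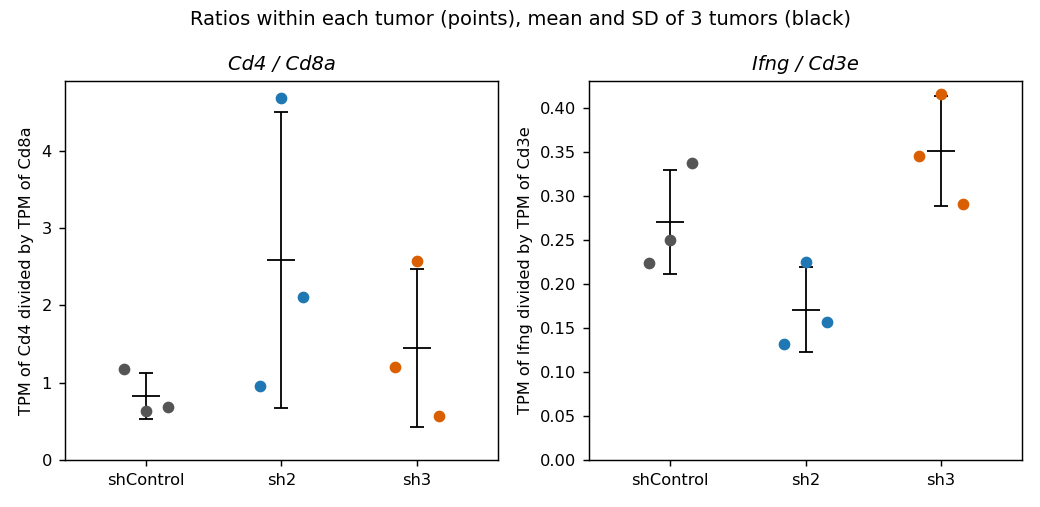
TPM of *Cd4* divided by TPM of *Cd8a* (left) and TPM of *Ifng* divided by TPM of *Cd3e* (right), by group, with 1 point per tumor and the mean and SD of 3 tumors in black. The *Cd4* ratio is highest in sh2 replicate 2 (4.69), and every sh3 tumor has a higher *Ifng* ratio than every sh2 tumor.

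The adhesion and costimulatory receptors, which bind antigen-presenting cells or give the second signal of activation, were 6 of 6 lower with sh2 and 6 of 6 higher with sh3 by sign, and none passed the FDR. *Icos* was at 2.64, 2.77 and 3.11 CPM in the shControl tumors, 2.74, 1.01 and 1.92 in the sh2 tumors and 4.02, 6.55 and 5.65 in the sh3 tumors. *Icos* is the inducible costimulator, shown by activated helper, follicular and regulatory T cells. All sh3 tumors were above all others, and sh2 replicate 2 was the lowest. Its log2 fold change was 0.93 (SE 0.38, FDR = 0.753) with sh3 (unadjusted p = 0.0375 from edgeR), −0.58 with sh2 and 1.51 (SE 0.39, FDR = 0.673) for sh3 against sh2. *Cd5* was at 3.45, 3.06 and 3.64 CPM in the shControl tumors, 4.04, 1.45 and 2.46 in the sh2 tumors and 3.93, 6.45 and 9.41 in the sh3 tumors. *Cd6* was at 4.05, 4.68 and 6.92 CPM in the shControl tumors, 4.09, 1.69 and 3.71 in the sh2 tumors and 4.58, 8.28 and 10.8 in the sh3 tumors. *Cd5* and *Cd6* are neighbours on chromosome 19 that encode related scavenger receptors which tune T cell receptor signalling. For *Cd5* all sh3 tumors were above all controls but overlapped sh2, and for *Cd6* all sh3 tumors were above all sh2 tumors but overlapped the controls. For sh3 against sh2 the log2 fold change was 1.31 (SE 0.43, FDR = 0.673) for *Cd5* and 1.31 (SE 0.43, FDR = 0.673) for *Cd6*. The remaining genes, *Cd2*, *Cd27* and *Cd28*, had log2 fold changes from −0.79 (*Cd27*) to −0.35 (*Cd28*) with sh2 and from 0.21 (*Cd27*) to 0.87 (*Cd2*) with sh3.

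The proximal signalling genes encode the kinases *Lck* and *Zap70*, the adaptors *Lat* and *Trat1*, and the regulators *Themis* and *Ubash3a*. All 6 were lower with sh2, with log2 fold changes from −0.48 to −0.84, and 5 of 6 were higher with sh3. *Themis* was at −0.01. *Zap70* was at 5.49, 4.72 and 5.81 CPM in the shControl tumors, 4.34, 1.74 and 3.63 in the sh2 tumors and 2.73, 9.86 and 8.77 in the sh3 tumors. Every sh2 tumor was below every control, and sh3 replicate 1 was below the controls as well. The largest sh3 value was that of *Trat1*, a T cell receptor associated adaptor, at 1.23 (SE 0.61, FDR = 0.760), a gene with few reads: its count in sh2 replicate 2 was 1, below the floor. *Themis* shares exon sequence with an antisense gene of the table.

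The inhibitory receptors were likewise 5 of 5 lower with sh2 and 5 of 5 higher with sh3, with none past the FDR. *Pdcd1* was at 14.7, 14.5 and 14.4 CPM in the shControl tumors, 15.9, 2.13 and 8.30 in the sh2 tumors and 9.29, 21.6 and 31.6 in the sh3 tumors. *Pdcd1* encodes PD-1, a receptor of activated and exhausted T cells. The controls lay close together, while the sh2 and sh3 tumors fell on both sides of them, so the differences between the group means, 14.5 ± 0.188, 8.77 ± 6.89 and 20.8 ± 11.2 CPM (SD, n = 3 tumors), were smaller than the range within each shRNA group. Its log2 fold changes were −0.73 with sh2 and 0.52 with sh3 (FDR = 0.999 and 0.891). *Ctla4* was at 1.53, 2.61 and 2.42 CPM in the shControl tumors, 3.08, 1.45 and 1.38 in the sh2 tumors and 3.33, 5.44 and 4.41 in the sh3 tumors. CTLA-4 competes with CD28 for its ligands and is abundant on regulatory T cells. All sh3 tumors were above all other tumors, with a log2 fold change of 1.00 (SE 0.41, FDR = 0.753) against shControl (unadjusted p = 0.0369 from edgeR), while with sh2 it was −0.15 and turned to 0.04 without sh2 replicate 2. *Havcr2* was at 27.5, 30.1 and 25.8 CPM in the shControl tumors, 26.0, 15.7 and 15.3 in the sh2 tumors and 20.2, 48.6 and 41.0 in the sh3 tumors. *Havcr2*, which encodes TIM-3 and is also carried by myeloid cells, was below every control in sh2 replicates 2 and 3 and in sh3 replicate 1. Its log2 fold change was −0.55 (SE 0.32, FDR = 0.999) with sh2 and 0.94 (SE 0.32, FDR = 0.673) for sh3 against sh2. *Lag3* and *Tigit* had values of −0.31 and −0.37 with sh2 and 0.29 and 0.25 with sh3. *Lag3* lies 16.11 kb from *Cd4*, and both were highest in sh3 replicate 2.

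**Figure D4:**
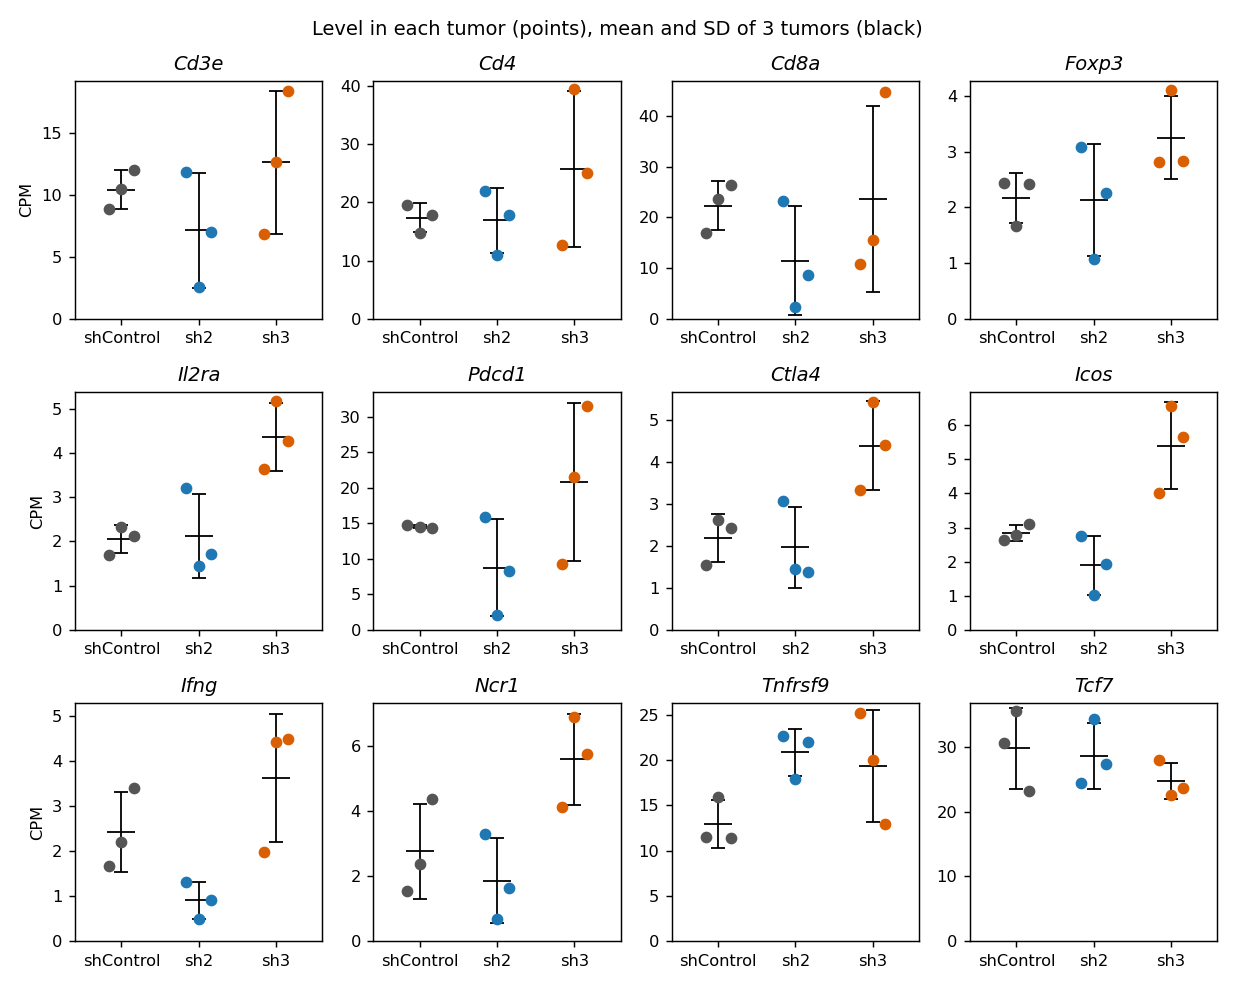
CPM (vertical axes, each starting at 0) of 12 of the genes in each tumor of the shControl, sh2 and sh3 groups (points), with the mean and SD of 3 tumors in black. *Il2ra*, *Ctla4* and *Icos* are higher in every sh3 tumor than in any other tumor, *Ifng* is lower in every sh2 tumor than in any other tumor, and *Tnfrsf9* is higher in every sh2 tumor than in any control.

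The TNF receptor family members are costimulatory receptors that appear on activated T cells, and one of them did not follow the rest. *Tnfrsf9* was at 11.5, 16.0 and 11.3 CPM in the shControl tumors, 22.7, 17.9 and 22.1 in the sh2 tumors and 25.2, 20.0 and 12.9 in the sh3 tumors. *Tnfrsf9* encodes 4-1BB. Every sh2 tumor was above every control, as were sh3 replicates 1 and 2, whereas sh3 replicate 3, the tumor with the highest CD3 levels, lay among the controls. The log2 fold change was 0.69 (SE 0.26, FDR = 0.999) with sh2 (unadjusted p = 0.0255 from edgeR), 0.58 (SE 0.26, FDR = 0.753) with sh3 and 0.64 (SE 0.23, FDR = 0.982) for the mean of both. The exact permutation test of 6 tumors against 3 gave p = 0.0357 for this gene, before any correction. *Tnfrsf4* (OX40) was at −0.10 with sh2 and 0.66 (SE 0.30, FDR = 0.759) with sh3, and its neighbour *Tnfrsf18* (GITR), 9.708 kb away, at −0.43 and 0.50.

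Among the regulatory T cell and interleukin 2 receptor genes, *Il2ra* had the lowest unadjusted p of the 45 genes for sh3 against shControl. *Il2ra* was at 1.70, 2.32 and 2.13 CPM in the shControl tumors, 3.20, 1.45 and 1.71 in the sh2 tumors and 3.65, 5.18 and 4.28 in the sh3 tumors. *Il2ra* encodes CD25, the high-affinity chain that regulatory and freshly activated T cells carry. All sh3 tumors were above all other tumors, and the sh2 tumors overlapped the controls. The log2 fold change was 1.09 (SE 0.37, FDR = 0.753) with sh3 (unadjusted p = 0.0156 from edgeR), 0.05 (SE 0.37, FDR = 0.999) with sh2 and 1.04 (SE 0.37, FDR = 0.673) for sh3 against sh2. The TPM ratio of *Il2ra* to *Cd3e* was 0.0627, 0.0721 and 0.0576 in the shControl tumors, 0.0877, 0.184 and 0.0796 in the sh2 tumors and 0.173, 0.133 and 0.0756 in the sh3 tumors. Every sh2 and every sh3 tumor was above every control in this ratio, and sh2 and sh3 overlapped. The exact two-sided permutation p was 0.1 against shControl for sh2 and likewise for sh3, unadjusted and at its lower limit in this design. The TPM ratio of *Foxp3* to *Cd3e* overlapped the controls with both shRNAs (exact permutation p = 0.2 for sh2 and 0.5 for sh3). *Foxp3* was at 2.43, 1.66 and 2.42 CPM in the shControl tumors, 3.08, 1.06 and 2.25 in the sh2 tumors and 2.82, 4.12 and 2.82 in the sh3 tumors. All sh3 tumors were above all controls in *Foxp3*, the master factor of regulatory T cells, by margins smaller than the range of the sh2 tumors. The log2 fold change was 0.58 (SE 0.42, FDR = 0.826) with sh3 and −0.02 with sh2, the latter turning to 0.31 without sh2 replicate 2. Exons of *Foxp3* overlap *Ccdc22* and *Ppp1r3f* on the opposite strand. *Il2rb*, the beta chain shared with interleukin 15 and abundant on NK cells and CD8 T cells, was at −0.89 with sh2 and 0.12 with sh3.

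*Ifng*, the cytokine by which T cells and NK cells activate macrophages and antigen presentation, had the most negative log2 fold change of the 45 genes with sh2 and the highest in sh3 against sh2, although neither passed the FDR. *Ifng* was at 1.66, 2.19 and 3.40 CPM in the shControl tumors, 1.31, 0.483 and 0.918 in the sh2 tumors and 1.99, 4.42 and 4.49 in the sh3 tumors. In counts these levels were 39, 53 and 83, then 31, 10 and 22, then 43, 87 and 105. Every sh2 tumor was below every other tumor, and the sh3 tumors overlapped the controls. The log2 fold change was −1.41 (SE 0.50, FDR = 0.999) with sh2 (unadjusted p = 0.0194 from edgeR), 0.59 (SE 0.48, FDR = 0.834) with sh3 and 2.00 (SE 0.50, FDR = 0.673) for sh3 against sh2 (unadjusted p = 0.00319). Relative to *Cd3e*, on TPM, *Ifng* was 0.224, 0.250 and 0.337 in the shControl tumors, 0.131, 0.224 and 0.157 in the sh2 tumors and 0.346, 0.416 and 0.291 in the sh3 tumors. The lowest ratio of the sh3 tumors exceeded the highest of the sh2 tumors, and both groups overlapped the controls, with exact permutation p = 0.1 between sh3 and sh2 and p = 0.2 for each against shControl.

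Of the 7 transcription factors 5 were lower with sh2 and 5 higher with sh3 by sign, with none past the FDR. *Tbx21* was at 2.47, 2.61 and 2.95 CPM in the shControl tumors, 2.40, 0.435 and 1.29 in the sh2 tumors and 2.03, 4.32 and 4.75 in the sh3 tumors. *Tbx21* encodes T-bet, the factor of interferon-producing lymphocytes. Every sh2 tumor was below every control, with a count of 9 in sh2 replicate 2. The log2 fold change of *Tbx21* was −0.95 (SE 0.56, FDR = 0.999) with sh2 and 0.47 with sh3. *Lef1* was at 1.58, 0.786 and 0.860 CPM in the shControl tumors, 1.31, 2.27 and 2.17 in the sh2 tumors and 0.647, 2.59 and 1.24 in the sh3 tumors. *Lef1*, a factor of naive T cells that other tissues also use, was higher in 2 of the sh2 tumors than in any control, at 0.83 (SE 0.54, FDR = 0.999) with sh2 and 0.47 with sh3. *Tcf7* was at 30.7, 35.6 and 23.1 CPM in the shControl tumors, 24.3, 34.3 and 27.3 in the sh2 tumors and 28.0, 22.6 and 23.7 in the sh3 tumors. *Tcf7*, the factor of naive and stem-like T cells, kept within a range of 1.57-fold and had one of its higher levels in sh2 replicate 2, where the CD3 chains were lowest. Its log2 fold changes were −0.06 with sh2 and −0.27 with sh3. The TPM ratio of *Tcf7* to *Cd3e* was 8.60 in sh2 replicate 2 and 0.827 to 2.62 in the other tumors. Which cells carried the RNA of *Tcf7* was not tested. *Gata3* and *Eomes*, factors of T helper 2 and of cytotoxic or NK cells, varied 1.68-fold and 2.49-fold between tumors, with values of −0.34 and 0.06 with sh2 and −0.19 and 0.52 with sh3. *Tox*, linked to exhaustion, and *Bcl11b*, of T cell commitment, were at −0.59 and −0.52 with sh2 and 0.39 and 0.12 with sh3.

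Of the 3 homing receptors 2 were lower with sh2 and 3 higher with sh3 by sign, with none past the FDR. *Cxcr3* was at 4.34, 3.52 and 6.76 CPM in the shControl tumors, 8.93, 1.45 and 3.80 in the sh2 tumors and 14.7, 7.62 and 12.8 in the sh3 tumors. *Cxcr3* guides effector T cells to chemokines that interferon gamma induces. The sh3 tumors were all above the controls, and sh2 replicate 1 was above them too. The log2 fold change was 1.27 (SE 0.58, FDR = 0.760) with sh3 and −0.04 with sh2. *Ccr7* was at 4.22, 3.89 and 3.44 CPM in the shControl tumors, 8.05, 5.46 and 3.71 in the sh2 tumors and 4.21, 10.1 and 5.13 in the sh3 tumors. *Ccr7*, of naive T cells and migrating dendritic cells, was highest in sh3 replicate 2 and sh2 replicate 1, and its values were 0.58 (SE 0.40, FDR = 0.999) with sh2 and 0.75 (SE 0.40, FDR = 0.760) with sh3, the same sign for both. *Cxcr6*, of resident and effector T cells, was at −0.58 and 0.48.

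Across the tumors the NK cell genes had r between 0.83 (*Ncr1*) and 0.99 (*Nkg7*) for log2 CPM against *Cd3e*. Without sh2 replicate 2 and sh3 replicate 3, r was 0.54 for *Ncr1* and 0.86 to 0.94 for the others. Which cells carried this RNA was not tested. *Ncr1* was at 1.53, 2.36 and 4.38 CPM in the shControl tumors, 3.29, 0.676 and 1.63 in the sh2 tumors and 4.12, 6.91 and 5.77 in the sh3 tumors. *Ncr1* encodes NKp46, found mainly on NK cells and related innate lymphocytes, and all sh3 tumors were above all sh2 tumors, with shControl overlapping both. Its log2 fold change was −0.56 (SE 0.58, FDR = 0.999) with sh2, 1.02 (SE 0.57, FDR = 0.760) with sh3 and 1.58 (SE 0.58, FDR = 0.673) for sh3 against sh2. *Klrk1* was at 11.3, 21.2 and 18.0 CPM in the shControl tumors, 16.8, 4.64 and 6.88 in the sh2 tumors and 8.09, 26.7 and 30.3 in the sh3 tumors. *Klrk1*, which encodes NKG2D and is shared with CD8 T cells, was below every control in 2 sh2 tumors and 1 sh3 tumor, with values of −0.83 and 0.37 (FDR = 0.999 and 0.917). *Klrd1* (CD94), 11.55 kb from *Klrk1*, and *Nkg7*, a granule membrane protein, were at −0.65 and −0.90 with sh2 and 0.67 and 0.51 with sh3. The TPM ratio of *Ncr1* to *Cd3e* was 0.171, 0.222 and 0.358 in the shControl tumors, 0.272, 0.259 and 0.229 in the sh2 tumors and 0.590, 0.536 and 0.309 in the sh3 tumors. The sh3 tumors were above the sh2 tumors without overlap (exact permutation p = 0.1), and sh3 replicate 3 fell within the range of the controls (p = 0.2).

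How far the genes moved together was measured as the correlation of log2 CPM with *Cd3e* over the 9 tumors. Pearson's r was at least 0.9 for 21 of the other 44 genes, beside 1.38% of all genes, and its median was 0.89 beside 0.01 over all genes. With permutation p-values adjusted over all genes, 20 of the 44 passed an FDR of 0.05 by Pearson's r and 14 by Spearman's rho. The share of all genes that passed this FDR is not given, so how far these counts exceed it was not tested. *Cxcr6* (r = 0.99, rho = 0.98), *Tox* (r = 0.99, rho = 0.98), *Nkg7* (r = 0.99, rho = 0.93) and *Cd27* (r = 0.99, rho = 0.87) were most like *Cd3e*, with permutation p of 8.27e-06, 5.51e-06, 3.58e-05 and 7.44e-05 for r. *Cd4* was less alike than *Cd8a*, with r = 0.73 beside 0.97 and the same rho of 0.80 for both, and the difference between them was not tested. At the other end stood *Tcf7* (r = −0.66, rho = −0.73, permutation p = 0.0421, FDR = 0.299), *Tnfrsf9* (−0.31), *Lef1* (−0.29), *Ccr7* (0.16), *Eomes* (0.21) and *Gata3* (0.23).

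The correlations were also computed without the tumors at both extremes of *Cd3e*. Leaving tumors out by their level of *Cd3e* narrows its range, which can by itself lower r. Without sh2 replicate 2 and sh3 replicate 3, the tumors farthest from the median of *Cd3e*, r was at least 0.9 for 10 genes. The matching share of all genes is not given. Among the 10 was *Lag3*, at 0.90 against 0.74 over all 9 tumors. *Tox* remained at 0.97, *Il2rb* at 0.96 and *Cxcr6* at 0.96, while *Cd28* went from 0.94 to 0.55, *Foxp3* from 0.75 to 0.31 and *Cxcr3* from 0.71 to −0.0030. Neighbours on a chromosome were alike to different degrees, from 0.77 for *Tnfrsf4* and *Tnfrsf18* and 0.82 for *Cd4* and *Lag3* to 0.99 for *Cd8a* and *Cd8b1*. All correlations share the tumors and their library totals.

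**Figure D5:**
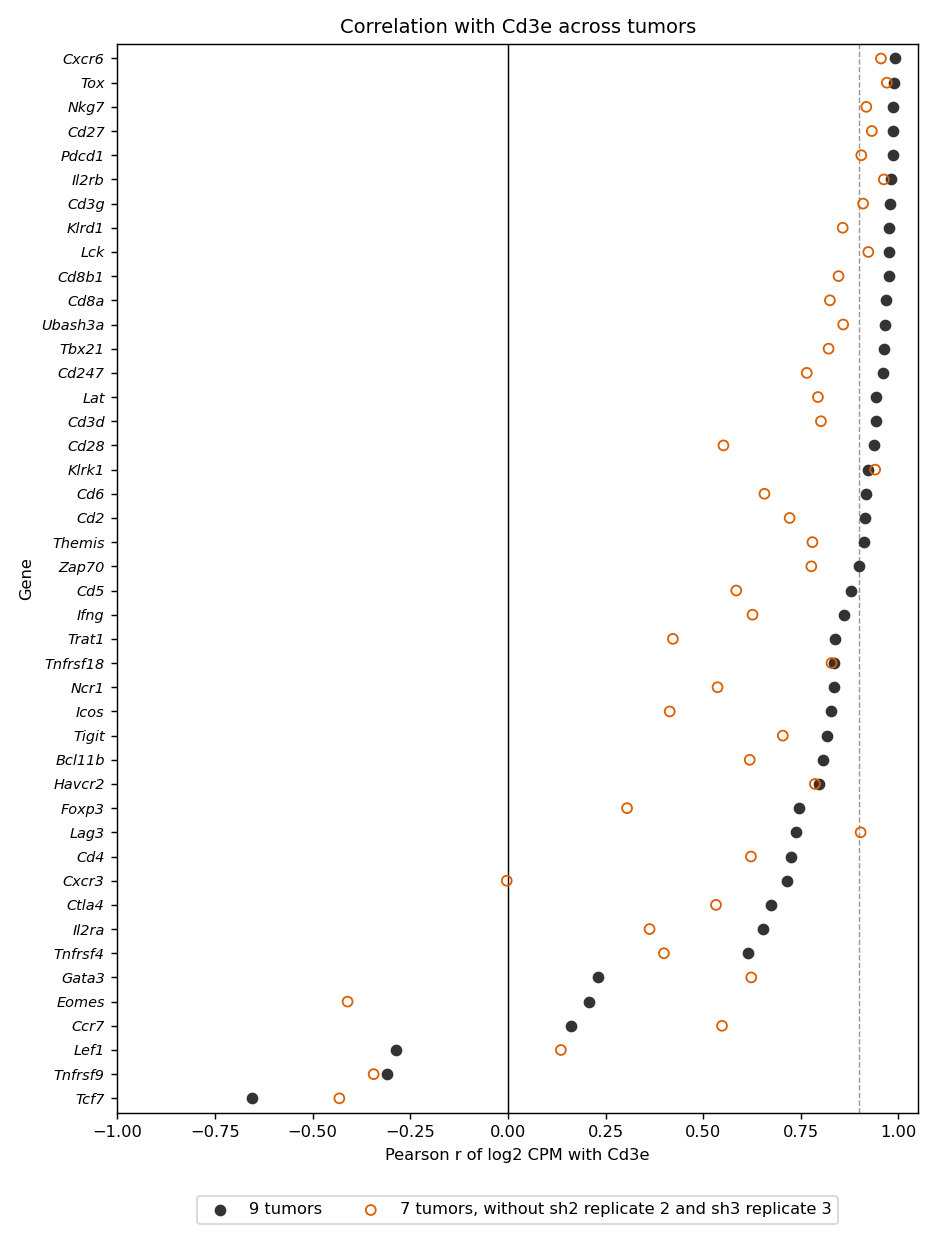
Pearson r of log2 CPM with *Cd3e* (horizontal axis) for the other 44 genes (vertical axis) over 9 tumors (black) and over 7 tumors without sh2 replicate 2 and sh3 replicate 3 (orange rings), with a dashed line at 0.9. Black points of 21 genes lie at or right of the line, and *Tcf7* lies farthest left at −0.66.

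Per transcript length, the levels in the shControl tumors spanned from 0.691 ± 0.267 TPM for *Lef1* to 49.6 ± 5.91 TPM for *Nkg7* (SD, n = 3 tumors). *Nkg7* and *Tigit* (46.4 ± 16.3 TPM) did not differ beyond their spread, and *Cd3g* (39.8 ± 4.39) and *Il2rb* (36.7 ± 8.72) followed within 1 SD of each other. *Cd8a* (17.0 ± 4.13), *Cd3e* (17.3 ± 3.17) and *Pdcd1* (17.9 ± 0.395) were level, with *Cd4* at 13.4 ± 1.91. *Foxp3* (1.32 ± 0.285) and *Il2ra* (1.11 ± 0.181) were among the lowest.

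Other T cell and NK cell genes, a list of 50 drawn up beside the 45, gave medians of the same sign. Of these, 46 were in the table and 40 passed the filter, and *Il2* and *Il4* had at most 3 counts in every tumor. Both lists were read in the same tumors, and 16 of the 40 had r of at least 0.9 with *Cd3e* (1.38% of all genes). The second list is therefore not independent of the 45. With sh2 34 of 40 were lower (median log2 fold change −0.37), with sh3 32 of 40 were higher (median 0.37), and none passed the FDR or an unadjusted p under 0.05 in either comparison. For sh3 against sh2 35 of 40 were higher (median 0.80), and none passed the FDR. At an unadjusted p under 0.05 in edgeR's test 6 were higher (3.52% of all genes) and 1 was lower (3.66% of all genes). Among these 6, *Ptprcap*, which binds the phosphatase CD45, was at 1.34 (SE 0.45) and the lymphocyte chemokine *Xcl1* at 1.46 (SE 0.60). The lower gene was *Ikzf2*, a factor of regulatory T cells, at −0.77 (SE 0.33).

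Markers of other cells varied between the tumors too, and their part in the results was not tested. Several immune markers moved with *Cd3e* over the 9 tumors, which is given as a description. The dendritic cell markers *Flt3* and *Clec9a* had r of 0.93 and 0.92 (rho 0.83 and 0.97), and *Ptprc*, which encodes the leukocyte antigen CD45, had 0.86 (rho 0.97). By list, r ranged from 0.21 to 0.86 for the leukocyte markers, from −0.02 to 0.75 for macrophages (rho from 0.22 to 0.92), from −0.41 to 0.93 for dendritic cells, from −0.08 to 0.81 for B cells and from −0.69 to 0.23 for neutrophils. Summed over 10 genes of all leukocytes, the level was 1150.3 to 1194 CPM in the shControl tumors, 796 to 1212 in sh2 and 630.2 to 1805 in sh3, lowest in sh3 replicate 1. The 9 macrophage markers summed to 2602 to 2957, 1518 to 2542 and 1040.3 to 5361 CPM, again lowest in sh3 replicate 1 and highest in sh3 replicate 2. The 10 B cell markers, all above 3 counts in at least 1 tumor, summed to 9.48 to 14.4, 5.56 to 16.3 and 15.2 to 29.6 CPM, so that every sh3 tumor was above every control. Their 8 tested genes had a median log2 fold change of 0.81 with sh3 and 0.27 with sh2. The 8 dendritic cell markers summed to 191 to 204, 133 to 203 and 114 to 264 CPM, and the 7 neutrophil markers to 89.5 to 176, 102 to 184 and 56.6 to 158 CPM.

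Non-immune markers were also summed. The 7 fibroblast markers summed to 3116 to 5456 CPM in the shControl tumors, 2423 to 4038 in sh2 and 1315 to 2311 in sh3, and 5 of the 7 were lower with sh3 at an unadjusted p under 0.05 in edgeR's test (3.13% of all genes), with a median log2 fold change of −1.19. Of the 9 squamous markers 3 and of the 7 endothelial markers 2 were lower with sh3 in this way, and of the 6 skeletal muscle genes 5 were lower with sh2 (1.87% of all genes), with a median of −4.39. The squamous genes were *Krt5*, *Krt15* and *Krt16*, at 87.4, 23.0 and 46.4 CPM in shControl replicate 1. In shControl replicates 2 and 3 *Krt5* was at 0.455 and 0.573 CPM, *Krt15* at 3.06 and 2.42 and *Krt16* at 17.9 and 6.30. No marker of these lists passed the FDR. The 7 endothelial markers summed to 218 to 266, 208 to 233 and 153 to 248 CPM and the 9 squamous markers to 1149.7 to 1783, 1227 to 1925 and 1195 to 1535 CPM. The 6 skeletal muscle genes summed to 16.8 to 2863, 3.46 to 111 and 83.7 to 962 CPM. Among the controls this sum was 330 CPM in shControl replicate 1, 16.8 in replicate 2 and 2863 in replicate 3. Of the markers of lymph node stroma and high endothelium, *Glycam1* stayed between 0.0966 and 1.20 CPM, *Madcam1* had at most 3 counts in every tumor, *Ccl21a* reached 6.80 CPM in shControl replicate 3, *Cxcl13* ranged from 13.4 to 159.7 CPM, and the 6 genes together summed to 14.0 to 77.6, 17.6 to 41.9 and 30.3 to 160.3 CPM. In edgeR's test *Cxcl13* had a log2 fold change of 1.68 for sh3 against sh2 (FDR = 0.673) and *Ccl21a* one of −3.28 with sh3 (FDR = 0.753), both with an unadjusted p under 0.05.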

How the data were processed

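RNA of 9 KLN205 tumors was analysed, 3 per group, with groups and replicate numbers from the labels. The authors checked reads with FastQC, aligned them with STAR 2.5.3a to mm10 and used featureCounts for gene-level counting, and the deposited table holds these raw counts for 19481 genes. The CPM signal deposited by the authors equals the count divided by the tumor's total and TMM factor and served as a check. The authors' deposited TPM was used for ratios and for levels between genes. The deposited comparisons of each shRNA with the control (log2 fold changes, p-values and FDR) were not used. The strand setting was not given in the sources used here.

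Counts were tested in R 4.3.3 with edgeR 4.0.16 (TMM, filterByExpr by group, robust quasi-likelihood fit of all 9 tumors, Benjamini-Hochberg adjustment over 14725 genes, FDR threshold 0.05). The members, lists and tests were chosen with earlier results of these data known. Named genes were the CD3 chains, the co-receptors, *Foxp3*, *Pdcd1*, *Ctla4*, *Ifng*, *Ncr1*, *Klrk1* and the 5 genes with the lowest p in each comparison; other single genes, motifs and the ratios were chosen after values were seen. Correlations used a prior count of 2 and enumerated all orders of the tumors. Alternatives were DESeq2 1.42.0, its size factors, the edgeR likelihood ratio test, other filters, fewer groups, each tumor left out, and a replicate block. Tumors with the same number did not deviate together (mean r −0.099 over 9 pairs, 0.052 over 18 others), so the numbers were not used. Tables were made with Python 3.11.15, pandas 2.3.3, numpy 2.4.6 and matplotlib 3.10.9.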

Additional observations from a re-analysis of the deposited data

How the results depend on the processing

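No gene of the 45 passed an FDR of 0.05 in any edgeR alternative. The median log2 fold changes did not move by more than the spread between tumors (0.69). That spread is larger than the medians against shControl, so this does not show that they were stable. For sh2 against shControl the median lay between −1.02 and −0.17. By tool the counts of genes called differed. DESeq2's Wald test called 2 genes of the table for sh2 against shControl, 41 for sh3 against shControl, 9 for the mean of both and 48 for sh3 against sh2, and edgeR's likelihood ratio test called 8, 8 and 14 in the last 3 of these. The cause was not tested. Of the 45 genes DESeq2 called 2, *Icos* (adjusted p = 0.0480) and *Ifng* (adjusted p = 0.04995), both for sh3 against sh2. Under a replicate block the medians were −0.57, 0.50, −0.04 and 1.11 for sh2, sh3, their mean and sh3 against sh2, and *Cd8a* and *Cd8b1* turned to −0.0771 and −0.0136 with sh3, and the block changed no call.

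Leaving out 1 tumor at a time turned the sign of some fold changes. With sh2 the range was −0.27 to 0.21 for *Cd4*, −0.385 to 0.307 for *Foxp3* and −0.632 to 0.0631 for *Ctla4*. With sh3 it was −0.121 to 0.575 for *Cd3e*, −0.79 to 0.44 for *Cd8a* and −0.76 to 0.55 for *Cd8b1*, and for sh3 against sh2 *Cd8b1*, at 0.90 with all tumors, ranged from −0.0381 (without sh3 replicate 3) to 1.93. With at least 10 counts in every tumor 41 of the 45 genes were tested. The fit of only the groups compared was not run for the mean of both shRNAs, which needs all 9 tumors.

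Each group had 3 tumors, so exact tests of 1 group against another could not go below p = 0.1, and a p above a threshold does not show that levels were alike. Few reads were counted in sh2 replicate 2 for *Trat1* (1), *Ubash3a* (4), *Cd27* (7), *Tbx21* (9) and *Ifng* (10). P-values measure the spread between these tumors, each a single piece, and cell number was not measured.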
